A study of Homo sapiens with 9 samples.

Results

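Small nucleolar RNA host genes are noncoding genes whose introns carry small nucleolar RNAs (snoRNAs) or small Cajal body RNAs (scaRNAs). Host genes were taken by name, as the noncoding genes called SNHG with a number together with GAS5, ZFAS1, DANCR and EPB41L4A-AS1. GENCODE 29 names 28 such genes among the 58395 identifiers counted. Of these, 23 had at least 10 reads in 3 or more libraries, and all 23 were among the 16761 genes tested. RNA-Seq was performed on MDA-MB-231, an established line of triple negative breast cancer cells, 96 h after reverse transfection with a nontargeting siRNA (siNC) or with 1 of 2 siRNAs against ZIP7 (siZIP7_1 and siZIP7_2). ZIP7 is the zinc transporter encoded by SLC39A7, and the study asked how its knockdown changed gene expression. There were 3 libraries for each siRNA and 9 in all, from DMEM cultures with serum and antibiotics. Every group was transfected, and no group received a ferroptosis inducer according to the labels. The labels do not say whether the libraries came from separate cultures, so the p-values measure only the spread between these libraries.

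A host gene is transcribed as a long precursor. Splicing frees the introns, and from them come C/D snoRNAs, which guide ribose methylation of ribosomal RNA, H/ACA snoRNAs, which guide pseudouridylation, or scaRNAs, which guide modification of spliceosomal RNA in Cajal bodies. The exons are joined into an RNA with little coding capacity, which is exported and engaged by ribosomes in the cytoplasm. Premature stop codons then send many of these spliced RNAs to nonsense-mediated decay, which needs ongoing translation. Several host genes, like the genes of ribosomal proteins, begin transcription with a C followed by a tract of pyrimidines, the 5′TOP element, which ties translation of the RNA to mTOR and LARP1. The level of a host RNA can therefore follow both its transcription and its translation-dependent decay, and read counts alone give the outcome of both.

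The targeted gene fell with each siRNA. Levels are given in CPM, the reads of a gene per 1e6 reads counted on genes, after scaling between libraries. SLC39A7 was at 321, 343 and 322 CPM in the siNC libraries, 35.4, 32.9 and 38.6 CPM with siZIP7_1 and 20.5, 19.5 and 17.6 CPM with siZIP7_2. It was left at 10.8% of the siNC mean with siZIP7_1 and at 5.84% with siZIP7_2 (log2 fold changes -3.20 ± 0.058 (SE, adjusted p = 7.38e-27) and -4.10 ± 0.063 (SE, adjusted p = 1.16e-28)). Between 24153785 and 30454419 reads were counted on genes per library. All 6 genes listed as markers of this line (VIM, CD44, AXL, CAV1, ZEB1 and KRT18) were detected, at a summed 8816 to 9415 CPM with siNC, 5573 to 5918 with siZIP7_1 and 6105 to 6307 with siZIP7_2. The luminal breast list (ESR1, PGR, FOXA1, GATA3, CDH1 and ERBB3) summed to 20.8 to 22.1 CPM with siNC, 44.8 to 46.7 with siZIP7_1 and 24.7 to 25.3 with siZIP7_2, with 5 of its 6 genes detected. The blood cell list (PTPRC, CD3E, CD79A and HBB) stayed at or under 1.17 CPM in every library. The share of reads outside annotated exons was 7.43% to 8.28% with siNC, 7.80% to 9.62% with siZIP7_1 and 9.99% to 11.5% with siZIP7_2, and the mitochondrial share ran from 2.26% to 3.88%, highest with siZIP7_2. These shares moved with the groups, and their part in the results below was not tested. Counts are relative to each library, so fewer host transcripts and more RNA of other genes cannot be told apart.

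The host genes as a group were lower after both ZIP7 siRNAs. Their summed level was 1086 to 1094 CPM in the siNC libraries, 712 to 747 CPM with siZIP7_1 and 611 to 627 CPM with siZIP7_2, and these ranges did not overlap. With siZIP7_1, 15 of the 23 host genes were lower, 4 were higher and 4 did not pass at an adjusted p of 0.05 (edgeR's quasi-likelihood F test, Benjamini-Hochberg over all genes tested). Over all genes tested, 35.9% were called lower and 34.8% higher in this comparison. With siZIP7_2, 17 host genes were lower, 5 were higher and 1 did not pass, against 39.3% of all genes called lower and 38.5% higher. The median log2 fold change of the host genes was -0.42 with siZIP7_1 and -0.74 with siZIP7_2, and that of all genes was -0.0069 and -0.0018. Both comparisons use the same siNC libraries, so the values are given side by side and not as separate support for each other.

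Since most genes of the series pass the plain test, changes were also tested against a minimum of 1.5-fold with glmTreat. Past this size, 9 of 23 host genes were lower and 0 higher with siZIP7_1, beside 13.8% and 13.9% of all genes. With siZIP7_2 the numbers were 13 lower and 2 higher, beside 18.3% and 20% of all genes. The count of 0 higher with siZIP7_1 is also 0 at an unadjusted glmTreat p under 0.05, while the plain edgeR test called 4 higher. The 13 genes lower with each siRNA were GAS5, SNHG1, SNHG4, SNHG5, SNHG6, SNHG7, SNHG8, SNHG12, SNHG15, SNHG16, SNHG17, SNHG26 and ZFAS1, and SNHG9, SNHG10 and SNHG11 were higher with each. SNHG3 and SNHG19 were called in opposite directions by the 2 siRNAs.

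**Figure D1:**
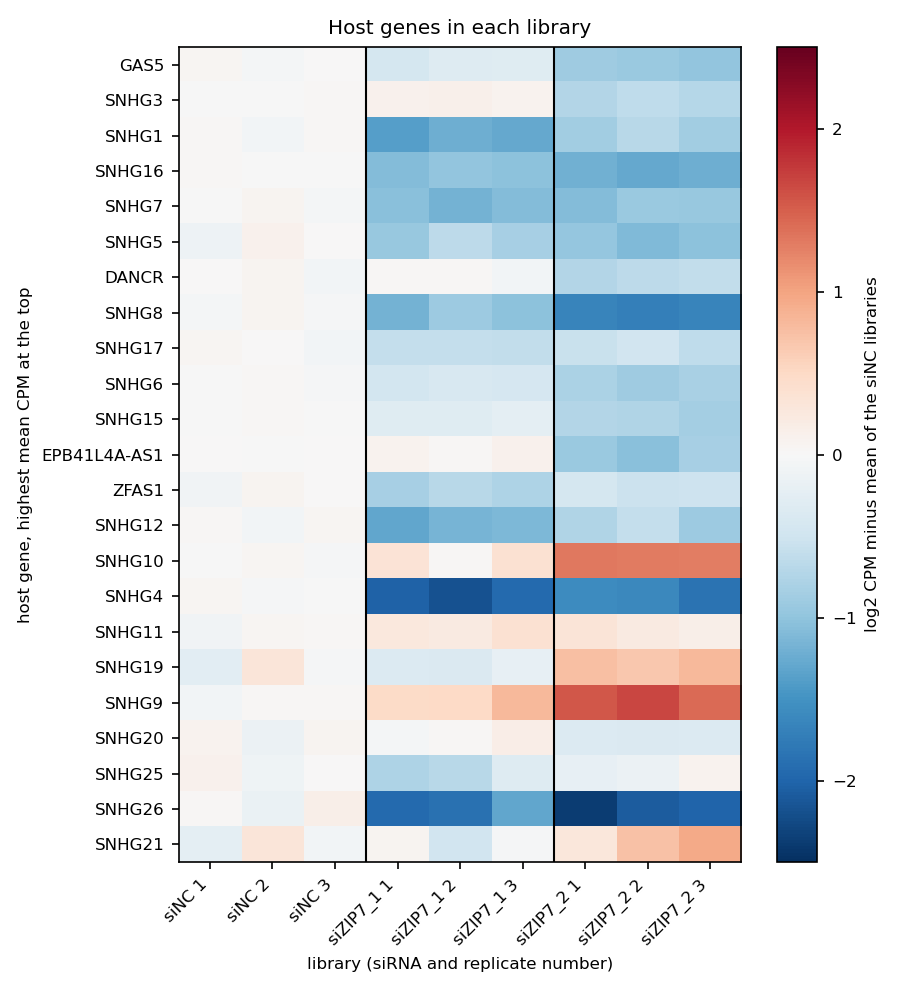
Level of each of the 23 host genes (rows, highest mean CPM at the top) in each of the 9 libraries (columns), on a log2 scale on which the mean of siNC is 0. Blue is lower and red is higher. SNHG4, SNHG8, SNHG16 and SNHG26 are blue in all 6 libraries of the ZIP7 siRNAs, SNHG9 is red in all 6, and SNHG10 is red mainly with siZIP7_2.

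**Figure D2:**
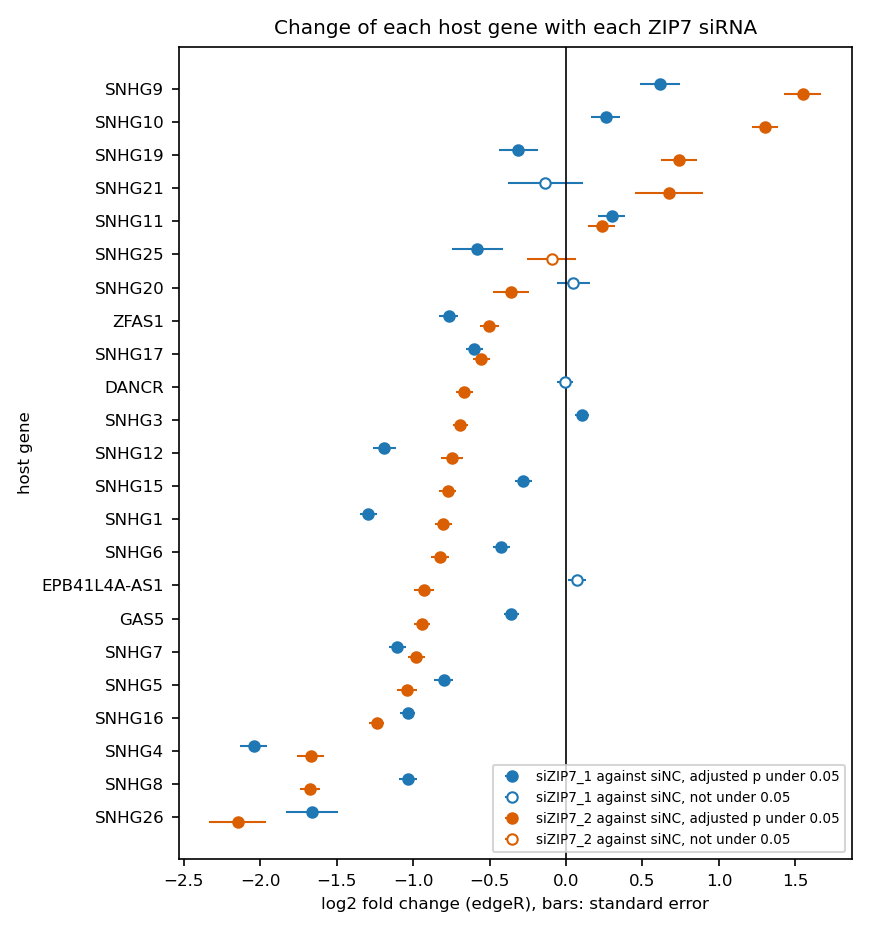
Log2 fold change of each host gene against siNC (x axis) with siZIP7_1 (blue) and siZIP7_2 (orange), with bars for the standard error. Filled points passed edgeR's test at an adjusted p of 0.05. Changes run from -2.15 for SNHG26 to 1.55 for SNHG9, both with siZIP7_2.

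Per length of annotated exon, the most abundant host RNA in siNC cells was SNHG8, at 78.00 ± 3.19 RPKM (CPM per kilobase; SD, n = 3). GAS5 followed at 42.8 ± 1.47 RPKM and SNHG6 at 34.7 ± 0.665 RPKM. The least abundant was SNHG20, at 0.928 ± 0.0763 RPKM. After siZIP7_2 the first place was held by SNHG19, a single-transcript gene of 342 exonic bases, at 26.2 ± 1.11 RPKM, with SNHG8 at 24.4 ± 0.649 RPKM. The exonic length joins all annotated transcripts of a gene (29 for GAS5), so genes with many transcripts are set lower on this scale than a single spliced form would be.

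Among the 23 host genes, GAS5, SNHG1 and SNHG16 are the most abundant carriers of C/D snoRNAs by CPM. GAS5 (chr1:173863900-173868882, minus strand, GRCh38) was named for its accumulation in growth-arrested cells and carries 10 C/D snoRNAs and 1 H/ACA snoRNA in RefSeq. It was at 159.7, 149 and 157 CPM in the siNC libraries, 114, 124 and 126 CPM with siZIP7_1 and 83.4, 81.1 and 78.4 CPM with siZIP7_2. The 3 groups did not overlap, with siZIP7_2 lowest. GAS5 gave log2 fold changes of -0.36 ± 0.049 (SE, adjusted p = 1.84e-07) with siZIP7_1 and -0.94 ± 0.050 (SE, adjusted p = 2.68e-16) with siZIP7_2, and siZIP7_2 against siZIP7_1 gave -0.58 ± 0.050 (SE, adjusted p = 1.20e-11).

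SNHG1 (chr11:62851988-62855914, minus strand), the host of SNORD22 and of SNORD25 to SNORD31, went the other way between the siRNAs. It was at 128, 119.7 and 127 CPM in the siNC libraries, 47.96, 53.4 and 51.8 CPM with siZIP7_1 and 68.8, 77.4 and 68.8 CPM with siZIP7_2. Every library of the ZIP7 siRNAs was below the siNC range, and siZIP7_1 was the lower of the 2. SNHG1 gave log2 fold changes of -1.29 ± 0.055 (SE, adjusted p = 1.92e-18) with siZIP7_1 and -0.80 ± 0.054 (SE, adjusted p = 6.58e-14) with siZIP7_2. The difference between the siRNAs was 0.49 ± 0.056 (SE, adjusted p = 5.35e-09), with siZIP7_2 higher.

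SNHG16 (chr17:76557766-76565348, plus strand) carries SNORD1A, SNORD1B and SNORD1C. It was at 104, 102 and 102 CPM in the siNC libraries, 48.3, 51.5 and 50.4 CPM with siZIP7_1 and 44.4, 42.2 and 43.9 CPM with siZIP7_2. It was left at 48.8% of the siNC mean with siZIP7_1 and at 42.5% with siZIP7_2, with no overlap between the 3 groups. SNHG16 gave log2 fold changes of -1.03 ± 0.049 (SE, adjusted p = 2.13e-17) with siZIP7_1 and -1.24 ± 0.050 (SE, adjusted p = 4.25e-19) with siZIP7_2. Of its exonic length, 33.4% lies under other genes, mostly the opposite-strand gene AC015802.6, which stayed under the level needed for a test.

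SNHG5, ZFAS1 and SNHG6 are C/D hosts with a shorter exonic length and a moderate CPM. Per exonic length, SNHG6 (34.7 RPKM) was above SNHG1 (33.3) and SNHG5 (28.0) above SNHG16 (19.1) in siNC cells. SNHG5 (chr6:85660950-85678748, minus strand), which carries SNORD50A and SNORD50B, was at 72.1, 84.98 and 78.7 CPM in the siNC libraries, 40.8, 50.2 and 44.1 CPM with siZIP7_1 and 40.1, 36.4 and 38.3 CPM with siZIP7_2. SNHG5 gave log2 fold changes of -0.80 ± 0.065 (SE, adjusted p = 5.94e-12) with siZIP7_1 and -1.04 ± 0.067 (SE, adjusted p = 2.12e-14) with siZIP7_2. All libraries of both ZIP7 siRNAs were below the lowest siNC library, and the ranges of the ZIP7 siRNAs did not overlap.

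ZFAS1 (chr20:49278178-49295738, plus strand) runs antisense to ZNFX1 and carries the SNORD12 family. It was at 36.6, 40.3 and 39.2 CPM in the siNC libraries, 21.9, 23.8 and 22.6 CPM with siZIP7_1 and 28.6, 26.5 and 26.99 CPM with siZIP7_2. It fell with both, and more with siZIP7_1. ZFAS1 gave log2 fold changes of -0.77 ± 0.062 (SE, adjusted p = 5.04e-12) with siZIP7_1 and -0.50 ± 0.061 (SE, adjusted p = 1.94e-08) with siZIP7_2. Overlapped exons make up 46.9% of its length, and ZNFX1 itself moved by -0.33 ± 0.046 and 0.33 ± 0.046 (log2, SE). ZNFX1 and ZFAS1 thus moved in opposite directions with siZIP7_2. The strand setting of the counting is not given, so reads from overlapping exons of opposite strands may not be told apart here and at the other antisense hosts.

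SNHG6, the host of SNORD87 (chr8, minus strand), was at 43.2, 44.1 and 42.5 CPM in the siNC libraries, 31.4, 32.98 and 32.2 CPM with siZIP7_1 and 25.04, 23.5 and 24.7 CPM with siZIP7_2. The 3 groups were apart and in the same order as for GAS5. SNHG6 gave log2 fold changes of -0.42 ± 0.056 (SE, adjusted p = 8.82e-08) with siZIP7_1 and -0.83 ± 0.058 (SE, adjusted p = 1.45e-13) with siZIP7_2. Other genes cover 36.4% of its exonic length, mostly MCMDC2 on the opposite strand, which was under the level needed for a test.

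SNHG26 and SNHG19 are C/D hosts at low CPM, and they stood at opposite ends of the C/D hosts with siZIP7_2. SNHG26 (chr7:22854178-22861579, plus strand), the host of SNORD93, was at 4.68, 4.08 and 5.13 CPM in the siNC libraries, 1.20, 1.27 and 1.88 CPM with siZIP7_1 and 0.893, 1.09 and 1.15 CPM with siZIP7_2. SNHG26 gave log2 fold changes of -1.66 ± 0.17 (SE, adjusted p = 8.13e-10) with siZIP7_1 and -2.15 ± 0.19 (SE, adjusted p = 1.60e-11) with siZIP7_2, so that 31.4% and 22.5% of the siNC mean were left. The difference between the siRNAs, -0.48 ± 0.22 (SE, adjusted p = 0.0487), lost its call when siZIP7_1 replicate 3 (-0.25, adjusted p = 0.359) or any siZIP7_2 library was left out. The call was also lost with DESeq2 (-0.45, adjusted p = 0.104) and with upper-quartile scaling in edgeR (-0.41, adjusted p = 0.103). The same held with DESeq2's size factors, with at least 10 reads in every library and with the compared groups alone.

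SNHG19 (chr16:2154797-2155358, minus strand), the host of SNORD60, has no exon that another gene overlaps. It was at 4.43, 6.57 and 5.20 CPM in the siNC libraries, 4.19, 4.12 and 4.61 CPM with siZIP7_1 and 9.01, 8.55 and 9.30 CPM with siZIP7_2. The siZIP7_2 libraries were all above the siNC range, while the siZIP7_1 range overlapped with that of siNC. SNHG19 gave log2 fold changes of -0.31 ± 0.13 (SE, adjusted p = 0.0319) with siZIP7_1 and 0.74 ± 0.12 (SE, adjusted p = 1.61e-06) with siZIP7_2. The fall with siZIP7_1 rests on siNC replicate 2, without which it was -0.15 (adjusted p = 0.305), and its call was also lost without siNC replicate 3, siZIP7_1 replicate 1 or siZIP7_1 replicate 2. The difference between the siRNAs, 1.05 ± 0.12 (SE, adjusted p = 3.55e-09), was called in every one of these settings.

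SNHG25 was between 2.66 and 3.09 CPM with siNC and hosts SNORD104, and GENCODE 29 also places the H/ACA gene SNORA50C in its exons, where other entries cover 48.6% of the length. Its log2 fold change was -0.58 ± 0.17 (SE, adjusted p = 0.00280) with siZIP7_1 and -0.094 ± 0.16 (SE, adjusted p = 0.597) with siZIP7_2. In all, 7 genes carry C/D snoRNAs alone in both RefSeq and GENCODE 29. Of these, 7 of 7 were lower with siZIP7_1, and 6 of 7 lower and 1 higher with siZIP7_2. Over all genes tested, 35.9% were lower with siZIP7_1, and 39.3% lower and 38.5% higher with siZIP7_2. The 7 of 7 include SNHG19, whose call with siZIP7_1 was lost when single libraries were left out. The GAS5 and SNHG12 genes, which carry both kinds in RefSeq, were lower with each siRNA.

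Among hosts of H/ACA snoRNAs, SNHG8, SNHG4 and SNHG7 fell with both siRNAs. SNHG8 (chr4:118278709-118279823, plus strand), the host of SNORA24, was at 69.9, 75.4 and 70.7 CPM in the siNC libraries, 31.8, 38.1 and 35.4 CPM with siZIP7_1 and 22.98, 21.9 and 22.8 CPM with siZIP7_2. It was left at 48.8% of the siNC mean with siZIP7_1 and at 31.3% with siZIP7_2, with no overlap between groups. SNHG8 gave log2 fold changes of -1.03 ± 0.059 (SE, adjusted p = 2.11e-15) with siZIP7_1 and -1.67 ± 0.063 (SE, adjusted p = 8.06e-20) with siZIP7_2, and the siRNAs differed by -0.64 ± 0.065 (SE, adjusted p = 4.57e-10).

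SNHG4 (chr5:139274102-139284899, plus strand), which carries SNORA74A and SNORA74D, had the lowest log2 fold change of any host gene with siZIP7_1. It was at 23.4, 22.3 and 22.6 CPM in the siNC libraries, 5.57, 5.05 and 5.93 CPM with siZIP7_1 and 7.65, 7.47 and 6.31 CPM with siZIP7_2. SNHG4 gave log2 fold changes of -2.04 ± 0.088 (SE, adjusted p = 2.57e-18) with siZIP7_1 and -1.67 ± 0.086 (SE, adjusted p = 1.30e-16) with siZIP7_2. Its exons overlap those of MATR3 and SIL1 over 16.6% of its length. The MATR3 entry, on the same strand and at 2.56 CPM with siNC, had log2 fold changes of -0.26 ± 0.16 and 0.11 ± 0.16 (SE). Neither passed the test. SIL1, on the opposite strand and at 62.1 CPM with siNC, gave 0.14 ± 0.055 (SE, adjusted p = 0.0218) and -0.42 ± 0.057 (SE, adjusted p = 1.39e-07).

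SNHG7 (chr9:136721366-136728184, minus strand), the host of SNORA17A and SNORA17B, was at 82.5, 87.2 and 80.6 CPM in the siNC libraries, 40.4, 36.5 and 39.5 CPM with siZIP7_1 and 39.3, 43.9 and 43.4 CPM with siZIP7_2. Both siRNAs took it below the siNC range. SNHG7 gave log2 fold changes of -1.10 ± 0.056 (SE, adjusted p = 1.12e-16) with siZIP7_1 and -0.98 ± 0.056 (SE, adjusted p = 1.40e-15) with siZIP7_2. The siRNAs differed by 0.12 ± 0.058 (SE, adjusted p = 0.0539) (95% interval 0.0044 to 0.24), a difference that passed the threshold without siZIP7_2 replicate 1 (0.17, adjusted p = 0.0128) or with DESeq2's size factors (0.16, adjusted p = 0.0158). Other genes cover 31.4% of its exonic length, mostly FAM69B on the opposite strand. FAM69B, at 2.21 CPM with siNC, gave -0.51 ± 0.19 (SE, adjusted p = 0.0172) and 0.40 ± 0.17 (SE, adjusted p = 0.0320).

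SNHG3, EPB41L4A-AS1 and DANCR, also H/ACA hosts, fell with siZIP7_2 and not with siZIP7_1. SNHG3 (chr1:28505980-28510892, plus strand) carries SNORA73A and SNORA73B, which take part in processing of the small-subunit rRNA. It was at 100.2, 101 and 103 CPM in the siNC libraries, 109, 111 and 107 CPM with siZIP7_1 and 61.3, 64.8 and 62.1 CPM with siZIP7_2. The siZIP7_1 libraries all lay above the siNC range and the siZIP7_2 libraries all below it. SNHG3 gave log2 fold changes of 0.11 ± 0.046 (SE, adjusted p = 0.0380) with siZIP7_1 and -0.69 ± 0.047 (SE, adjusted p = 9.39e-14) with siZIP7_2, and the difference between the siRNAs was -0.80 ± 0.047 (SE, adjusted p = 2.37e-15). The small rise with siZIP7_1 lost its call without siNC replicate 1 (0.096, adjusted p = 0.123), siNC replicate 2 or any siZIP7_1 library.

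SNHG3 lies at the start of the RCC1 locus on the same strand, and 10.96% of its exonic length lies under other genes. RCC1, the nucleotide exchange factor of Ran, was at 152 ± 8.09 CPM with siNC, 78.6 ± 3.89 with siZIP7_1 and 109 ± 10.3 with siZIP7_2 (SD, n = 3). Its log2 fold changes were -0.95 ± 0.058 (SE, adjusted p = 1.02e-14) and -0.48 ± 0.058 (SE, adjusted p = 1.39e-08). With siZIP7_1 the neighbours on 1 strand therefore moved apart, RCC1 down and SNHG3 slightly up.

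EPB41L4A-AS1 (chr5:112160526-112164276, plus strand), the host of SNORA13 on the strand opposite EPB41L4A, was at 35.2, 34.5 and 34.99 CPM in the siNC libraries, 36.9, 35.4 and 37.8 CPM with siZIP7_1 and 18.4, 16.9 and 19.7 CPM with siZIP7_2. The siZIP7_2 libraries were all below the siNC range, at 52.5% of the siNC mean. EPB41L4A-AS1 gave log2 fold changes of 0.072 ± 0.060 (SE, adjusted p = 0.286) with siZIP7_1 and -0.93 ± 0.065 (SE, adjusted p = 1.38e-13) with siZIP7_2, and the siRNAs differed by -1.0 ± 0.064 (SE, adjusted p = 1.58e-14). The value with siZIP7_1 passed the test when libraries were scaled by their totals alone (0.16, adjusted p = 0.0195). EPB41L4A, which overlaps 49.6% of the exonic length, rose with both, by 1.44 ± 0.16 and 1.21 ± 0.16 (log2, SE).

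DANCR (chr4:52712404-52720351, plus strand), the host of SNORA26 and known for holding epidermal progenitors undifferentiated, was at 60.96, 63.1 and 57.8 CPM in the siNC libraries, 61.4, 62.1 and 57.8 CPM with siZIP7_1 and 36.6, 38.5 and 39.5 CPM with siZIP7_2. The siZIP7_1 libraries fell within or beside the siNC range and all siZIP7_2 libraries below it. DANCR gave log2 fold changes of -0.0045 ± 0.052 (SE, adjusted p = 0.944) with siZIP7_1 and -0.66 ± 0.055 (SE, adjusted p = 5.48e-12) with siZIP7_2. The interval of the change with siZIP7_1 ran from -0.11 to 0.10 (95%), and the siRNAs differed by -0.66 ± 0.054 (SE, adjusted p = 4.93e-12).

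SNHG15, the host of SNORA9, and SNHG12, the host of SNORD99 and 3 H/ACA snoRNAs, fell with both. SNHG15 (chr7:44983023-44986961, minus strand) was at 40.1, 40.8 and 39.9 CPM in the siNC libraries, 32.6, 32.8 and 34.1 CPM with siZIP7_1 and 24.2, 23.9 and 22.5 CPM with siZIP7_2. SNHG15 gave log2 fold changes of -0.28 ± 0.056 (SE, adjusted p = 6.89e-05) with siZIP7_1 and -0.77 ± 0.058 (SE, adjusted p = 8.15e-13) with siZIP7_2. SNHG15 was nearer to siNC with siZIP7_1 in all libraries.

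SNHG12 (chr1:28578538-28583132, minus strand) was at 36.9, 34.2 and 37.1 CPM in the siNC libraries, 14.6, 16.2 and 16.6 CPM with siZIP7_1 and 21.4, 23.9 and 19.3 CPM with siZIP7_2. SNHG12 gave log2 fold changes of -1.19 ± 0.074 (SE, adjusted p = 1.36e-14) with siZIP7_1 and -0.74 ± 0.072 (SE, adjusted p = 1.84e-10) with siZIP7_2. It was lower with siZIP7_1 than with siZIP7_2, by a difference of 0.44 ± 0.077 (SE, adjusted p = 7.15e-06). TRNAU1AP, a selenocysteine tRNA-associated protein gene on the opposite strand at this locus, moved by 0.94 ± 0.065 with siZIP7_1 and by -0.17 ± 0.070 with siZIP7_2 (log2, SE). It shares 0.188% of SNHG12's exonic length.

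SNHG17, at 51.7 to 56.1 CPM with siNC and the host of the SNORA71 copies, fell by 0.60 on the log2 scale with siZIP7_1 (SE 0.055, adjusted p = 8.22e-11) and by 0.55 with siZIP7_2 (SE 0.055, adjusted p = 3.83e-10). SNHG11, the host of SNORA60 and SNORA71E, was higher with both, by 0.30 ± 0.088 (SE, adjusted p = 0.00351) and 0.23 ± 0.089 (SE, adjusted p = 0.0196). The second of these lost its call without siNC replicate 1 (0.18, adjusted p = 0.105) or siZIP7_2 replicate 1 (0.20, adjusted p = 0.0734). In all, the 10 genes that carry H/ACA snoRNAs alone were lower in 5 and higher in 3 with siZIP7_1. With siZIP7_2 they were lower in 8 and higher in 2. Of all genes, 35.9% were lower and 34.8% higher with siZIP7_1, and 39.3% and 38.5% with siZIP7_2. The 3 higher with siZIP7_1 include SNHG3, whose call was lost when single libraries were left out. No direction can be read with siZIP7_1 from 10 genes, and whether hosts of H/ACA and C/D snoRNAs differ was not tested.

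SNHG9 and SNHG10 were the host genes that rose most with siZIP7_2. SNHG9 (chr16:1964959-1965509, plus strand), the host of SNORA78, was at 2.98, 3.18 and 3.20 CPM in the siNC libraries, 4.37, 4.43 and 5.46 CPM with siZIP7_1 and 9.12, 9.87 and 8.34 CPM with siZIP7_2. The 3 groups did not overlap. SNHG9 gave log2 fold changes of 0.61 ± 0.13 (SE, adjusted p = 1.54e-04) with siZIP7_1 and 1.55 ± 0.12 (SE, adjusted p = 1.89e-12) with siZIP7_2, which is a 2.93-fold rise with siZIP7_2. The siRNAs differed by 0.94 ± 0.11 (SE, adjusted p = 9.21e-09). The gene of SNORA78 lies in its exons and takes 23.05% of their length.

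SNHG10 (chr14:95532297-95534872, minus strand), the host of the scaRNA gene SCARNA13, was at 8.35, 8.68 and 8.26 CPM in the siNC libraries, 10.7, 8.62 and 10.9 CPM with siZIP7_1 and 21.1, 20.9 and 20.4 CPM with siZIP7_2. Its siZIP7_2 libraries were all above 20 CPM, and the siZIP7_1 range overlapped with that of siNC. SNHG10 gave log2 fold changes of 0.26 ± 0.093 (SE, adjusted p = 0.0143) with siZIP7_1 and 1.30 ± 0.086 (SE, adjusted p = 3.90e-14) with siZIP7_2. The call with siZIP7_1 was lost without siZIP7_1 replicate 1 (0.22, adjusted p = 0.0638) or replicate 3 (0.20, adjusted p = 0.0954). GLRX5, a mitochondrial glutaredoxin gene on the opposite strand that overlaps 20.1% of its exonic length, rose by 0.39 ± 0.066 and 0.34 ± 0.067 (log2, SE).

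The other scaRNA hosts, SNHG20 and SNHG21, had 114 to 201 and 24 to 58 reads per library. SNHG20, the host of SCARNA16, had log2 fold changes of 0.048 ± 0.11 (SE, adjusted p = 0.710) and -0.36 ± 0.12 (SE, adjusted p = 0.00678), and the second lost its call with upper-quartile scaling (-0.25, adjusted p = 0.0563). SNHG21, the host of SCARNA15, had -0.14 ± 0.24 (SE, adjusted p = 0.632) and 0.68 ± 0.22 (SE, adjusted p = 0.00766), and the second lost its call without siZIP7_2 replicate 3 (0.53, adjusted p = 0.0553). As much as 72.9% of the exonic length of SNHG21 lies under other genes. The 3 scaRNA hosts had 1 higher and 0 lower with siZIP7_1 and 2 higher and 1 lower with siZIP7_2, beside 34.8% higher and 35.9% lower and then 38.5% and 39.3% of all genes, so that no direction can be read from 3 genes.

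Between the siRNAs, 9 host genes were higher and 11 lower with siZIP7_2 than with siZIP7_1, and 3 did not pass, where 38.1% of all genes were higher and 40.6% lower. Past 1.5-fold, 3 were higher and 2 lower, beside 20.8% and 19.8% of all genes. SNHG9, SNHG10 and SNHG19 were the 3 higher genes. SNHG3 and EPB41L4A-AS1 were the 2 lower genes. The median difference was -0.07 on the log2 scale. It was -0.32 among the 14 host genes with under 20% of their exonic length overlapped and 0.014 with upper-quartile scaling. The summed level of the host genes was lower with siZIP7_2, as given above, with no overlap between the siRNAs. SLC39A7 itself was lower with siZIP7_2 by -0.89 ± 0.066 (log2, SE, adjusted p = 4.89e-13), and with 2 siRNAs the depth of the knockdown cannot be told apart from other effects of an siRNA.

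Few of the small RNAs inside the hosts could be counted. GENCODE 29 places 129 snoRNA and scaRNA genes inside the 28 host genes, 83 of them in SNHG14, and 8 had at least 10 reads in 3 libraries. Of the 129, 36 lie wholly in annotated host exons and had no reads in any library, since reads there could not be assigned to them, so nothing can be said of their level. Outside SNHG14, 21 do not lie wholly in host exons. Of the 8 with reads, in 6 hosts, 7 were lower with siZIP7_1 and 6 with siZIP7_2, beside 35.9% and 39.3% of all genes. All 8 had log2 fold changes under 0 in both comparisons. The minimum of 10 reads in 3 libraries can be met by the siNC libraries alone, which favours small RNAs that are higher with siNC. SNORD30 would not have met it without them. SNORA71A, SNORA71B and SNORA71C also share 1 host, so the common direction of the 8 is given as a description only. Between the siRNAs, 0 of the 8 passed by edgeR, 0 passed at an unadjusted p under 0.05 and 0 by DESeq2. The library protocol in the labels is a standard one for total RNA and is not said to select small RNA. Whether these reads come from mature snoRNAs or from unspliced host RNA was not tested. GENCODE 29 holds no snoRNA gene in GAS5, whose hosted genes were taken from RefSeq and not counted.

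The snoRNAs with reads are shown because they can be set beside their hosts. Capitals mark the C box (TGATGA, where it matched exactly) and the D box (CTGA) of the C/D snoRNAs and the ACA box near the end of the H/ACA snoRNA. Sequences are from the GENCODE 29 transcripts, written 5′ to 3′ as DNA. SNORD104 lies at chr17:64146083-64146152 (plus strand), SNORD99 at chr1:28578749-28578822 (minus), SNORD30 at chr11:62853663-62853732 (minus) and SNORA73B at chr1:28508559-28508762 (plus), all on GRCh38.
SNORD104: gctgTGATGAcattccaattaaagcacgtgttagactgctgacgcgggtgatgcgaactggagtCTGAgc
SNORD99: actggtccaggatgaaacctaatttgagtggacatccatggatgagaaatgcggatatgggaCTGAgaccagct
SNORD30: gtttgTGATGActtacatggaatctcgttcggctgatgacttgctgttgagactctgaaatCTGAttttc
SNORA73B: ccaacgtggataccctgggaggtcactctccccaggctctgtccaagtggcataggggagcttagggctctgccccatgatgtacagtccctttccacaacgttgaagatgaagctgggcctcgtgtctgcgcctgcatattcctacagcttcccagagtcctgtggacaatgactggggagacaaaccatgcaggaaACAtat

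SNORD104 in SNHG25 had 147, 142 and 141 reads in the siNC libraries, 74, 83 and 123 with siZIP7_1 and 73, 73 and 68 with siZIP7_2. All libraries of both ZIP7 siRNAs were below the siNC range. Its log2 fold change was -0.79 ± 0.14 (SE, adjusted p = 1.15e-05) with siZIP7_1 and -1.07 ± 0.15 (SE, adjusted p = 1.67e-07) with siZIP7_2, while that of its host with siZIP7_2 was -0.094 ± 0.16. It had more reads than its host in the siNC libraries, where SNHG25 had 85, 62 and 81. The other 7 had at most 10.8 reads per 100 reads of the host in any library.

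SNORA73B in SNHG3 had 45, 36 and 51 reads in the siNC libraries, 17, 33 and 11 with siZIP7_1 and 11, 22 and 15 with siZIP7_2. Its log2 fold change was -1.27 ± 0.28 (SE, adjusted p = 1.93e-04) with siZIP7_1, where SNHG3 itself was at 0.11, and -1.51 ± 0.29 (SE, adjusted p = 3.33e-05) with siZIP7_2. This small RNA and its host thus had opposite signs with siZIP7_1, and the difference between them was not tested. The same held for SCARNA13 in SNHG10, with 13, 9 and 25 reads in the siNC libraries, 9, 11 and 8 with siZIP7_1 and 12, 14 and 10 with siZIP7_2. SCARNA13 was at -0.90 ± 0.36 (SE, adjusted p = 0.0298) and -0.44 ± 0.35 (SE, adjusted p = 0.252), and the first lost its call without siNC replicate 3 (-0.43, adjusted p = 0.365), siZIP7_1 replicate 1 or siZIP7_1 replicate 3.

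SNORD99 in SNHG12 fell with its host, with 34, 44 and 40 reads in the siNC libraries, 18, 13 and 8 with siZIP7_1 and 8, 23 and 18 with siZIP7_2. Its log2 fold change was -1.75 ± 0.31 (SE, adjusted p = 1.07e-05) with siZIP7_1 and -1.33 ± 0.29 (SE, adjusted p = 1.85e-04) with siZIP7_2. SNORD30 in SNHG1 had 16, 18 and 12 reads in the siNC libraries, 10, 7 and 4 with siZIP7_1 and 5, 12 and 5 with siZIP7_2, a depth at which only a large change could pass. It was at -1.28 ± 0.40 (SE, adjusted p = 0.00593) and -1.12 ± 0.40 (SE, adjusted p = 0.0129), and the first lost its call without siZIP7_1 replicate 3 and the second without siNC replicate 2, siZIP7_2 replicate 1 or siZIP7_2 replicate 3.

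In SNHG17, SNORA71A, SNORA71B and SNORA71C are close copies among which reads can be split or lost. SNORA71B was at -0.96 ± 0.26 (SE, adjusted p = 0.00172) and -0.95 ± 0.26 (SE, adjusted p = 0.00184). SNORA71C was at -0.64 ± 0.28 (SE, adjusted p = 0.0387) and -0.77 ± 0.28 (SE, adjusted p = 0.0159), calls that were lost without siNC replicate 3 (-0.38, adjusted p = 0.290 and -0.51, adjusted p = 0.153). The first was also lost without siZIP7_1 replicate 2 or 3 and the second without siZIP7_2 replicate 3. SNORA71A was at -0.48 and -0.42 and passed in neither comparison.

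**Figure D3:**
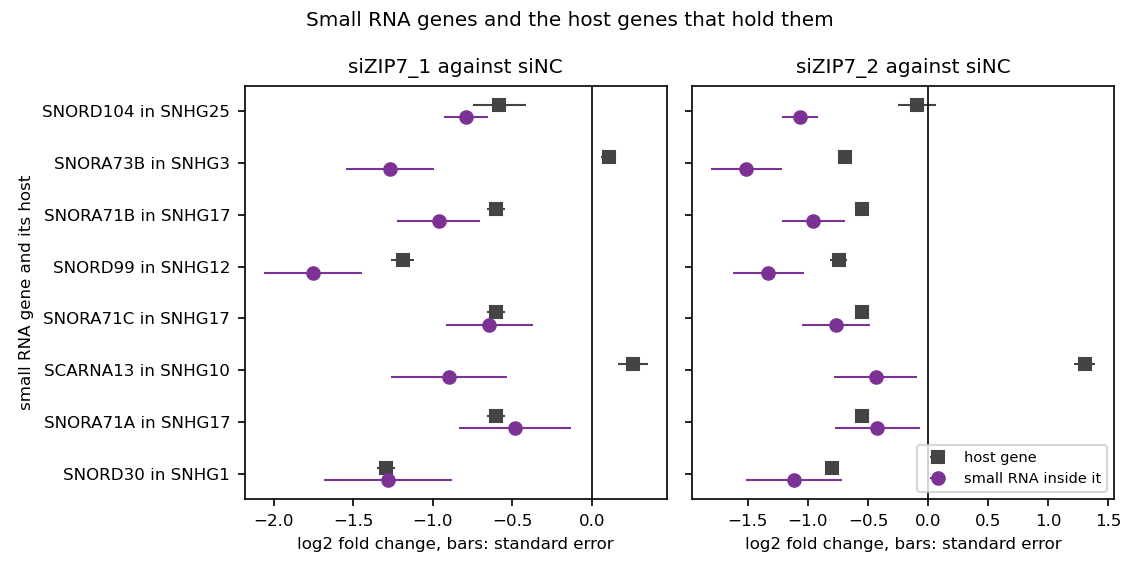
Log2 fold change against siNC (x axis, bars for the standard error) of 8 small RNA genes (purple circles) and of the host gene that holds each (grey squares), with siZIP7_1 on the left and siZIP7_2 on the right. The small RNAs lie left of 0 in both panels, between -1.75 and -0.42, while SNHG10 lies right of 0 in both and SNHG3 in the left panel.

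The starts of the host genes are shown because the 5′TOP element is read from them. Each window holds 10 bases before the RefSeq start and 30 from it (GRCh38.p14), 5′ to 3′, and the capitals mark the unbroken run of C and T from the first base of the RNA.
SNHG4: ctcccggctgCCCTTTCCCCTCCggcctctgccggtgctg
SNHG12: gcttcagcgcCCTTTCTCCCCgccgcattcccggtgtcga
SNHG19: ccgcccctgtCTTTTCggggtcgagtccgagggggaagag
SNHG5: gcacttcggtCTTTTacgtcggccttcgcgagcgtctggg
ZFAS1: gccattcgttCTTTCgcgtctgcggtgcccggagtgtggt
SNHG26: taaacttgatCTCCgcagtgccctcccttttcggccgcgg
SNHG7: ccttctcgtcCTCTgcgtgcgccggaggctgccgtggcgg
SNHG1: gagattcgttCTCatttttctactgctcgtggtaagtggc
SNHG8: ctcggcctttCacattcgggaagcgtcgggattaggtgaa
SNHG3: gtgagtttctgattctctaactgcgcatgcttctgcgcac
GAS5: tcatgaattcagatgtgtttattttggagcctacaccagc

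The windows lie at chr5:139274091-139274130 (SNHG4, plus strand), chr1:28581844-28581883 (SNHG12, minus), chr16:2155329-2155368 (SNHG19, minus), chr6:85678704-85678743 (SNHG5, minus), chr20:49278632-49278671 (ZFAS1, plus), chr7:22854230-22854269 (SNHG26, plus), chr9:136728155-136728194 (SNHG7, minus), chr11:62855856-62855895 (SNHG1, minus), chr4:118278752-118278791 (SNHG8, plus), chr1:28505933-28505972 (SNHG3, plus) and chr1:173869016-173869055 (GAS5, minus). RefSeq starts were at hand for 19 of the 23 host genes. Runs were 13 bases in SNHG4, 11 in SNHG12, 6 in SNHG19, 5 in SNHG5 and ZFAS1, and 4 in SNHG26 and SNHG7. With a C first and a run of at least 4, a minimum chosen after the values were seen, 7 of 19 starts (36.8%) qualified, beside 5.45% of 35116 RefSeq promoters and 57.6% of 85 ribosomal protein promoters. The true start can differ from the annotated one. RefSeq and the outermost GENCODE start agree within 10 bases in 8 of 19 genes and are over 100 bases apart in 4, among them GAS5 (163 bases), ZFAS1 (464) and SNHG12 (1259).

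All 7 genes with such a start were lower with siZIP7_1, at a median log2 fold change of -1.10 and a range from -2.04 to -0.31. Of all genes tested, 35.9% were lower with siZIP7_1, and SNHG19 among the 7 lost its call when single libraries were left out. The other 12, sorted by the RefSeq start alone, ran from -1.29 to 0.30 with a median of -0.07. They cannot be taken as genes without a 5′TOP element. SNHG1 starts with a C and a run of 3, and the RefSeq and GENCODE starts of GAS5 are 163 bases apart. Among these 12, GAS5, SNHG1, SNHG8, SNHG16 and SNHG17 were called lower with siZIP7_1, and SNHG3, SNHG10 and SNHG11 higher. With siZIP7_2 the medians were -0.98 and -0.68, and SNHG19 in the first set rose. The sets were read from these data and are given as a description, with no test. Of 3 motifs searched on both strands of the promoters (250 bases before to 50 after the start), none overlapping another, the E-box CACGTG was in 1 of 19 host promoters (5.26%, beside 7.26% of all), the ETS motif CCGGAAGT in 1 of 19 (5.26%, beside 4.14%) and the ATF4-type motif TGATGCAA in 0 of 19 (beside 0.866%).

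**Figure D4:**
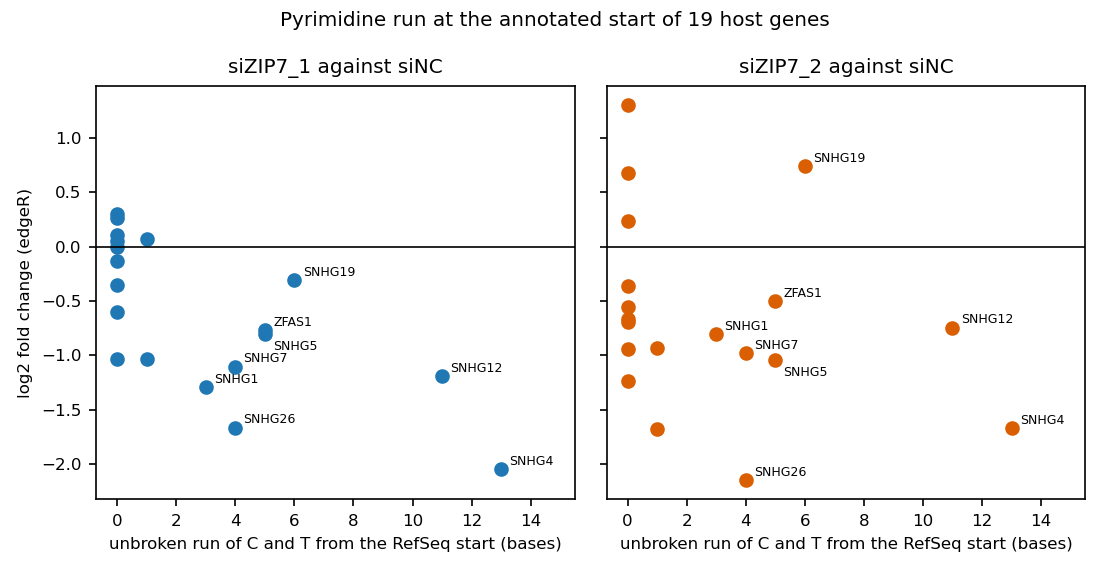
Log2 fold change of 19 host genes against siNC (y axis) by the length in bases of the C and T run at the RefSeq start (x axis), with siZIP7_1 on the left and siZIP7_2 on the right. Genes with runs of 3 or more are named. In the left panel all 8 of them lie under 0, and in the right panel SNHG19 lies above it.

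The host genes were then set beside genes of the same pathway. Coding hosts were mostly lower as well. Of 28 ribosomal protein genes with a snoRNA gene inside, 27 were lower with each siRNA, at medians of -0.46 and -0.92, such as RPS2 (-0.71 and -1.53). All 82 ribosomal protein genes tested gave 74 lower and 2 higher with siZIP7_1 and 78 lower and 1 higher with siZIP7_2. Of 105 other coding hosts, 62 were lower and 25 higher with siZIP7_1 and 73 lower and 20 higher with siZIP7_2. Here and in the next paragraphs, paired values are log2 fold changes with siZIP7_1 and siZIP7_2 against siNC, and counts are of genes that passed edgeR's test. They are to be read beside the 35.9% lower and 34.8% higher of all genes with siZIP7_1 and the 39.3% lower and 38.5% higher with siZIP7_2.

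Most genes of the proteins that build snoRNPs were lower too. Of 19 tested, 13 were lower and 2 higher with siZIP7_1 and 16 lower and 1 higher with siZIP7_2. FBL, the methyltransferase of C/D snoRNPs, was at -0.71 and -1.98. NOP56, a core C/D protein, was at -0.93 and -1.32. RUVBL1, an assembly ATPase, was at -0.25 and -2.20, and TCOF1, a nucleolar factor of rRNA transcription, at -1.38 and -1.51.

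TOP mRNAs outside the ribosomal proteins, such as those of elongation factors, were lower in 15 and higher in 1 of 18 with siZIP7_1 and lower in 17 and higher in 1 with siZIP7_2. EEF1D was at -0.61 and -0.68, and EIF3L at -1.13 and -0.15. Of 19 genes of translation control, 9 were lower and 6 higher with siZIP7_1 and 12 lower and 5 higher with siZIP7_2 (47.4% and 63.2% lower). LARP1, which binds the TOP element, was at -1.14 and -0.32. EIF2AK3 (PERK), the kinase that slows initiation in endoplasmic reticulum stress, was at 1.26 and 0.93.

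Factors of RNA decay were called in both directions. Nonsense-mediated decay factors were lower in 9 and higher in 5 of 18 with siZIP7_1 and lower in 10 and higher in 5 with siZIP7_2, which is 50% and 55.6% lower. The exon junction proteins RBM8A (-0.73 and -1.06) and MAGOHB (-0.86 and -1.34) were among those lower. Of 14 coding transcripts known as endogenous targets of this decay, 8 were lower and 5 higher with siZIP7_1 and 7 lower and 7 higher with siZIP7_2 (57.1% and 50% lower). The stress factor gene ATF3 was at 0.78 and 1.49, and the splicing factor gene SRSF2 at -0.66 and -0.89.

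Nuclear exosome genes were lower in 11 and higher in 3 of 16 with siZIP7_1 and lower in 13 and higher in 2 with siZIP7_2, with the core subunit gene EXOSC9 at -0.64 and -1.31. Cytoplasmic decay genes were lower in 7 and higher in 4 of 18 with siZIP7_1 and lower in 7 and higher in 9 with siZIP7_2, and the 38.9% lower with each lies near the share of all genes. The decapping enzyme gene DCP2 was at 1.38 and 1.69.

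Other long noncoding genes were called higher more often than lower. Of 2395 tested, 802 were higher and 422 lower with siZIP7_1 and 1052 higher and 509 lower with siZIP7_2, at medians of 0.23 and 0.42. These are 33.5% higher and 17.6% lower with siZIP7_1, and 43.9% and 21.3% with siZIP7_2. With siZIP7_1 the share higher was thus near the 34.8% of all genes, and the share lower was under the 35.9% of all genes. Of 17 well-known ones tested, 5 were higher and 6 lower with siZIP7_1 and 9 higher and 6 lower with siZIP7_2, so that the 35.3% lower with each lay at or under the share of all genes. MALAT1, a nuclear RNA, was at 0.14 and 2.24, NEAT1, the scaffold of paraspeckles, at 1.33 and 1.37, and MIR17HG, a microRNA host, at -1.71 and -1.74. The 26 microRNA host genes tested were higher in 10 and lower in 8 with siZIP7_1 and higher in 17 and lower in 5 with siZIP7_2. Whether the host genes differ from these lists was not tested.

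**Figure D5:**
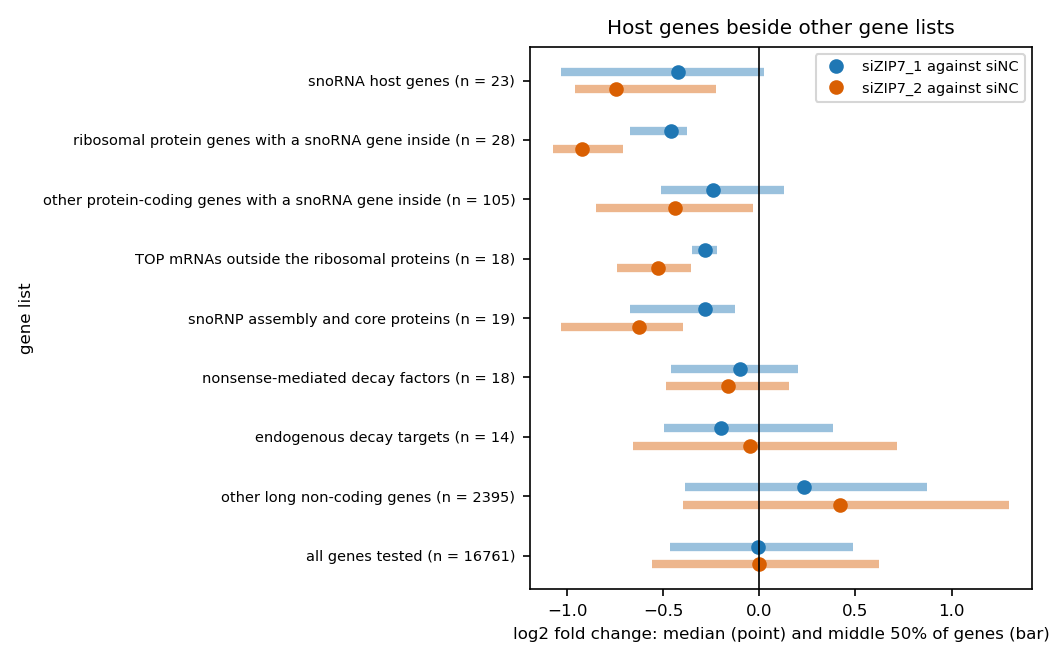
Median (point) and middle 50% of genes (bar) of the log2 fold change against siNC (x axis) for the host genes and 8 other gene lists, with siZIP7_1 in blue and siZIP7_2 in orange and n the genes tested. The medians of the host genes, coding hosts, TOP mRNAs and snoRNP proteins lie left of 0 in both comparisons and those of other long noncoding genes right of it. Medians of the nonsense-mediated decay factors (-0.098 and -0.16) and of the endogenous decay targets (-0.20 and -0.051) also lie left of 0.

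Some genes carry the name only in newer nomenclature and were not counted above. LRRC75A-AS1 (now SNHG29) was at 379, 414 and 387 CPM in the siNC libraries, 326, 353 and 352 CPM with siZIP7_1 and 170.2, 162 and 179 CPM with siZIP7_2. It was thus more abundant by CPM than any of the 23 host genes, and 43.4% of the siNC mean was left with siZIP7_2. Its log2 fold change was -0.19 ± 0.049 (SE, adjusted p = 0.00103) with siZIP7_1 and -1.21 ± 0.051 (SE, adjusted p = 1.21e-18) with siZIP7_2. C6orf48 (now SNHG32, coding in GENCODE 29) had -0.45 ± 0.049 (SE, adjusted p = 2.78e-09) and -1.22 ± 0.051 (SE, adjusted p = 1.01e-18). LINC02001 (now SNHG30) had 0.14 ± 0.095 (SE, adjusted p = 0.177) and 1.04 ± 0.089 (SE, adjusted p = 1.36e-11). With these 3 added, 17 of 26 were lower and 4 higher with siZIP7_1, and 19 lower and 6 higher with siZIP7_2. Of all genes, 35.9% were lower and 34.8% higher with siZIP7_1, and 39.3% and 38.5% with siZIP7_2. AC016708.1 (now SNHG31), with 2 to 9 reads per library, was under the minimum and not tested.

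The 5 host genes under the minimum were SNHG14, SNHG18, SNHG22, SNHG27 and SNHG28. SNHG14 spans the SNORD115 and SNORD116 clusters, which are mainly expressed in brain, and it was at most 0.116 CPM here. SNHG18 was the highest of the 5, at most 0.328 CPM. The noncoding entry of SNHG28 had no reads in any library, where 3 reads would be 0.0985 to 0.124 CPM, and its exons are wholly covered by other entries, so reads could not be assigned to it. A coding entry of the same symbol, not taken as a host gene, had 32 to 99 reads per library. By edgeR's test its log2 fold changes were 0.58 ± 0.22 (SE, adjusted p = 0.0215) with siZIP7_1 and 1.21 ± 0.21 (SE, adjusted p = 6.48e-06) with siZIP7_2. Other entries cover 55.5% of its exonic length.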

How the data were processed

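Total RNA of 9 MDA-MB-231 samples was extracted with DNase I treatment and sequenced as single reads on an Illumina HiSeq by the authors, who deposited raw read counts per Ensembl gene, with no normalization, as HTSeq writes them. The submitters' processing notes name Trim Galore 0.4.1, FastQC 0.11.2, STAR, HTSeq 0.6.1 and DESeq2 1.16.1. The genome build, the annotation and the strand setting of the counting are not given in the sources used here, nor is the selection of RNA for the libraries. HTSeq's summary lines were left out of library sizes. Reads outside annotated exons made up 7.43% to 11.5% and ambiguous reads 2.66% to 2.91% of all reads. Groups were taken from the sample labels.

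Of 58395 identifiers, 58275 were in GENCODE 29 (GRCh38), which gave symbols, positions and exonic lengths. Genes lying wholly under exons of the opposite strand had at least 90 summed reads in 60 of 708 cases (8.47%), and genes wholly under exons of the same strand in 8 of 968 (0.826%), and hosts with 20% or more of their exonic length under other entries are named as such. Hosted snoRNAs and starts were taken from RefSeq (GRCh38.p14).

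The counts were fitted with edgeR 4.0.16 in R 4.3.3 (TMM, filterByExpr, glmQLFit, glmQLFTest), in a single fit of the 3 groups with 6 residual degrees of freedom. P-values are two-sided and Benjamini-Hochberg adjusted over 16761 genes, with a threshold of 0.05, and glmTreat of the same fit tested against 1.5-fold. The biological coefficient of variation was 4.50%. No library was a copy of another, since the chi-square of replicate pairs was 2.50 to 6.65 per gene. The fit was checked on simulated counts. A count of 3 reads was taken as the limit of detection. DESeq2 1.42.0 was used as an alternative, besides other scalings, filters, a replicate block and leaving out each library.

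Values in every library are given for GAS5, ZFAS1, DANCR, EPB41L4A-AS1, the 6 SNHG genes with the highest mean CPM and any host past 1.5-fold, and up to 4 genes are named in each other list. The host genes and the lists were chosen with earlier results of these data known.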

Additional observations from a re-analysis of the deposited data

Results flagged for a closer look

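SNHG3 and SNHG19 were each called in opposite directions by the 2 ZIP7 siRNAs, and the difference between the siRNAs passed the test for both. SNHG3, the host of SNORA73A and SNORA73B, was 0.11 ± 0.046 with siZIP7_1 and -0.69 ± 0.047 with siZIP7_2 (log2 fold change against siNC, SE), a difference of -0.80 ± 0.047 (SE, edgeR adjusted p = 2.37e-15). SNHG19, the host of SNORD60, was -0.31 ± 0.13 with siZIP7_1 and 0.74 ± 0.12 with siZIP7_2, a difference of 1.05 ± 0.12 (SE, edgeR adjusted p = 3.55e-09). In both genes the change with siZIP7_1 was the smaller of the pair and lost its call when single libraries were left out, while the difference between the siRNAs kept its call. Groups of 3 libraries are too small for a search for single outlying libraries.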

How the results depend on the processing

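Of 918 alternative values for 18 host genes, 878 kept their direction and side of the threshold, 24 lost their call, 7 gained one and 9 changed sign. All 9 were DANCR with siZIP7_1, where the value lies at 0 within its error: it was 0.021 with upper-quartile scaling, 0.084 with library size alone, 0.019 with at least 10 reads in every library, 0.0040 with the compared groups alone, and -0.027 to 0.031 over the fits without each library. The median with siZIP7_1 was -0.34 with library size alone. With upper-quartile scaling the median with siZIP7_2 was -0.64 and that of siZIP7_2 against siZIP7_1 was 0.014, where the median of all genes also moved, to 0.10 with siZIP7_2. Tested against a 1.5-fold change, 9 host genes were called in place of 19 with siZIP7_1 and 5 in place of 20 between the siRNAs. Among the 14 host genes with under 20% of their exonic length overlapped, 2 were higher with siZIP7_1 and 2 with siZIP7_2. Between the siRNAs 4 were higher with siZIP7_2, where the median was -0.32. Of these 14, all were called lower with siZIP7_1 except SNHG3, SNHG11, DANCR and SNHG20. With siZIP7_2, all were called lower except SNHG11 and SNHG19. Of all genes, 35.9% were lower and 34.8% higher with siZIP7_1, and 39.3% and 38.5% with siZIP7_2. Between the siRNAs 38.1% of all genes were higher with siZIP7_2. Over all 23 host genes, the number called higher with siZIP7_1 ran from 2 to 4 in the fits without each library. It was 2 when siZIP7_1 replicate 1 or 3 was left out. Replicate numbers are shared by the groups but do not pair the libraries, as deviations of same-numbered libraries correlated at -0.049 to 0.075. With the replicate block, 4 host genes were higher and 15 lower with siZIP7_1, the same numbers as without it. For snoRNAs with 4 to 147 reads per library, depth limits what can be called.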
